A study of Mus musculus with 21 samples.

Results

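The genes described here encode proteins of the synaptic vesicle and of the machinery that fuses it with the presynaptic membrane. They were chosen by symbol: numbered synaptotagmins (Syt), synapsins (Syn), SNAP proteins (Snap), synaptobrevins (Vamp), syntaxins (Stx) and syntaxin-binding proteins (Stxbp), every symbol that begins with Rab3, the Sv2, complexin (Cplx) and Rims families, and Syp, Nsf, Unc13a and Bsn. The rule found 70 genes among the 12393 genes measured, each represented by the probe set of highest mean level. The rule reads symbols only and takes no difference between groups, apart from the mean level that picks the probe set. Of the 70 genes, 8 stood within 0.01 of the lowest value of the scale on all 21 arrays, called at the lowest value below, so no difference could be read for them. The letters of the rule also took in 8 Rab GTPases numbered in the thirties, which are not isoforms of Rab3, 19 SNARE proteins that act mainly on membranes other than the synaptic vesicle, and Snap91, a clathrin adaptor. These were kept and are described as groups of their own. Sv2b and Rims1 were not analysed here.

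Transmitter release runs through an ordered series of steps. A filled vesicle is tethered at the active zone, a protein scaffold under the presynaptic membrane to which bassoon (Bsn) and the Rims proteins belong, and Rab3 on the vesicle binds that scaffold. Munc13 (Unc13a) then opens syntaxin so that syntaxin and SNAP-25 on the plasma membrane can zip up with synaptobrevin on the vesicle, complexins hold the partly zipped complex, and a synaptotagmin releases it when calcium enters. NSF afterwards takes the used SNARE complexes apart, and clathrin adaptors bring the vesicle membrane back. In cortex these proteins are made mostly by neurons.

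The levels came from the cerebral cortex of 21 mice, 1 Affymetrix MOE430A 2.0 array for each, on a mixed C57BL/6J x C3HeJ background. All mice were taken 2 weeks after a doxycycline diet was withdrawn, which frees the transactivator tTA to switch on a human TDP-43 transgene. TDP-43 is a nuclear RNA-binding protein that leaves the nucleus and aggregates in amyotrophic lateral sclerosis and frontotemporal lobar degeneration. The dNLS bigenic group had 5 mice of line NLS4 with both transgenes, whose TDP-43 carries a defective nuclear localization signal. The dNLS monogenic group had 4 mice of line NLS4 that carried the TDP-43 transgene without tTA. The WT bigenic group had 4 mice of line WT12 with both transgenes, whose TDP-43 has the wild-type sequence. The nontransgenic group had 8 mice, 6 from line NLS4 and 2 from line WT12. Each transgene was studied in a single line, so in dNLS bigenic against WT bigenic cortex the mutant protein and its line cannot be told apart. No group carried tTA alone, so against nontransgenic or dNLS monogenic cortex the induced protein and tTA cannot be told apart. In the published lines tTA is driven by the Camk2a promoter, which is active mainly in excitatory neurons of the forebrain. Sexes were uneven, with 4 males and 1 female among dNLS bigenic mice, 3 and 1 among dNLS monogenic mice, 1 and 3 among WT bigenic mice, and 4 and 4 among nontransgenic mice. The fit therefore held sex as a term, and a difference can depart a little from that of the group means. Nothing in the labels says which mice were littermates.

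Array quality differed between nontransgenic arrays. The difference of the 3′ and 5′ beta-actin control probe sets, which grows as RNA is degraded or amplified short, was 1.34 to 2.30 on the log2 scale on dNLS bigenic arrays, 1.56 to 3.13 on dNLS monogenic arrays, 1.37 to 1.43 on WT bigenic arrays and 1.46 to 8.20 on nontransgenic arrays. Nontransgenic arrays 6 and 4 held the highest values of all, 8.20 and 4.70, and values without them are given where they matter. The 10 pan-neuronal markers were all measured, with a summed log2 level of 119.1 to 121.6 on dNLS bigenic arrays, against 115.5 to 122.2 on nontransgenic arrays. A sum can hide opposed differences. At a limma adjusted p of 0.05, 4 of the 10 were higher and 2 lower than in nontransgenic cortex, with a median difference of 0.14. Of all genes 22.3% passed. The 6 microglial markers summed to 47.8 to 52.7 in dNLS bigenic cortex, 55.2 to 60.8 in WT bigenic cortex and 48.1 to 56.5 in nontransgenic cortex. Between dNLS bigenic and nontransgenic cortex 0 of the 6 were higher and 1 lower, with a median difference of -0.40. The 3 measured markers of excitatory neurons summed to 28.5 to 31.8 on dNLS bigenic arrays, against 25.8 to 33.2 on nontransgenic arrays. Of these 3, 0 were higher and 1 lower than in nontransgenic cortex, with a median of -0.30. Among 7 interneuron markers 1 was higher and 2 lower, with a median of -0.20. The part of these cell types in the results was not tested. Fewer cells of a type and less RNA per cell cannot be told apart in whole cortex. One nontransgenic mouse labelled male had the Xist level of a female.

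RefSeq promoters, here the 250 bases upstream of the annotated start in GRCm38.p6, were on hand for 54 of the 70 genes. The windows of 6 of them are printed, 5′ to 3′ on the gene's strand: all 3 matched genes that were higher in dNLS bigenic cortex (Bsn, Rab3c, Cplx1), and 3 lower genes whose dNLS bigenic arrays lay below every other array (Stx1a, Unc13a, Stx4a). They lie at chr9:108190384-108190633 (Bsn, minus strand), chr13:110280207-110280456 (Rab3c, minus), chr5:108550028-108550277 (Cplx1, minus), chr5:135023232-135023481 (Stx1a, plus), chr8:71671758-71672007 (Unc13a, minus) and chr7:127841558-127841807 (Stx4a, plus). Capitals mark matches, on either strand, to the GC box GGGCGG, the cyclic-AMP response element TGACGTCA, the EGR site GCGTGGGCG and the TATA box TATAAA.
Bsn: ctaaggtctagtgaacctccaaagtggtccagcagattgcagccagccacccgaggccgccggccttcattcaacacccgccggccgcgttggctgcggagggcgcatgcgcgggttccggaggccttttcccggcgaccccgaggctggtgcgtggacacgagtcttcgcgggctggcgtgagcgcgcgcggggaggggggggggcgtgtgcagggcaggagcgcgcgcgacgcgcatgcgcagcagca
Rab3c: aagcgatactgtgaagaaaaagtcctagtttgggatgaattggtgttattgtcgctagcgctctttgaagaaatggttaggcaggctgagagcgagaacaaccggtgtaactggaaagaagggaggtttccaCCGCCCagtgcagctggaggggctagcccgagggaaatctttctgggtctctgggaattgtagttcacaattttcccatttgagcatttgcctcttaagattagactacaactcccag
Cplx1: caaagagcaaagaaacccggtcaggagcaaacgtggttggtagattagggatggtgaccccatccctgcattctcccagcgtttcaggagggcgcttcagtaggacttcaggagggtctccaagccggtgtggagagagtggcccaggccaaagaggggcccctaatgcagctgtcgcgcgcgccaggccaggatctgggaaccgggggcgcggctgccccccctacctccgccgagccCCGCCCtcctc
Stx1a: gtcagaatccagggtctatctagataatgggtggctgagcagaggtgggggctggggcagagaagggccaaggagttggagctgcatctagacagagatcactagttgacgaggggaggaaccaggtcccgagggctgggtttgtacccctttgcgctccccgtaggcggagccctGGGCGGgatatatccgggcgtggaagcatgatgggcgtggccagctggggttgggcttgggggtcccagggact
Unc13a: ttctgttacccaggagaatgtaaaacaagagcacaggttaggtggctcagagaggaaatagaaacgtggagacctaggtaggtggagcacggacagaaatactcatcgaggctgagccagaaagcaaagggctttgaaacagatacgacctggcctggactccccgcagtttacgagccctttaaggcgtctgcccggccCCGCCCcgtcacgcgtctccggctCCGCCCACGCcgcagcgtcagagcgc
Stx4a: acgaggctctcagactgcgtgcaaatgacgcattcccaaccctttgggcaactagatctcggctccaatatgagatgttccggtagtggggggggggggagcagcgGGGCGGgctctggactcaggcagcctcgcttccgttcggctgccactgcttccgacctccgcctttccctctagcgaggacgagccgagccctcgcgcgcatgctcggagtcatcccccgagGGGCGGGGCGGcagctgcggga
At least 1 GC box stood in 5 of the 6 windows, and the window of Stx4a held 3. The window of Unc13a held 2, and an EGR site overlaps one of them. No letters of the 4 motifs were found in the window of Bsn. Over all matched genes, 34 of 54 (63.0%) had a GC box, against 32.9% of all 27025 promoters of the same length. A TATA box stood in 2 of 54 (3.70%), against 3504 of all 27025 promoters, a cyclic-AMP response element in 2 (3.70%), against 1.62%, and an EGR site in 1 (1.85%), against 0.540%. The median GC content was 60.8% for the matched genes and 52% for all promoters. A GC box was as frequent among genes that were higher in dNLS bigenic cortex, 2 of 3, as among genes that were lower, 6 of 9. These counts describe letters and not binding.

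The first comparison was dNLS bigenic against nontransgenic cortex. Genes of the set differed in both directions. Of the 70 genes, 17 (24.3%) passed an adjusted p of 0.05 in limma, against 22.3% of all 12393 genes, so the share lay near the background. Genes at the lowest value on all arrays are rarer among the 70 than among all genes. Leaving them out of the count gave 27.4% of 62 genes, against 28.9% of 9539. The 6 higher genes were the scaffold protein Bsn, the vesicle GTPase Rab3c, the synaptotagmins Syt5 and Syt4, the SNARE Vamp7 and the complexin Cplx1. The 11 lower genes were Syt17, Stx1a, Unc13a, Stx4a, Stx7, Cplx2, Nsf, Snap91, Vamp1, Vamp3 and Rab31. The median difference was 0.00 for the 70 genes and 0.00 for all genes, and the share of all genes was 10.8% higher and 11.5% lower. Without the genes at the lowest value the medians were -0.0321 and -0.0155. When every array was centred on its median, which moved the median of all genes by -0.08, 4 genes were higher and 14 lower, so that higher calls made up 22.2% of the calls in place of 35.3% (36.8% in place of 48.4% over all genes).

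**Figure D1:**
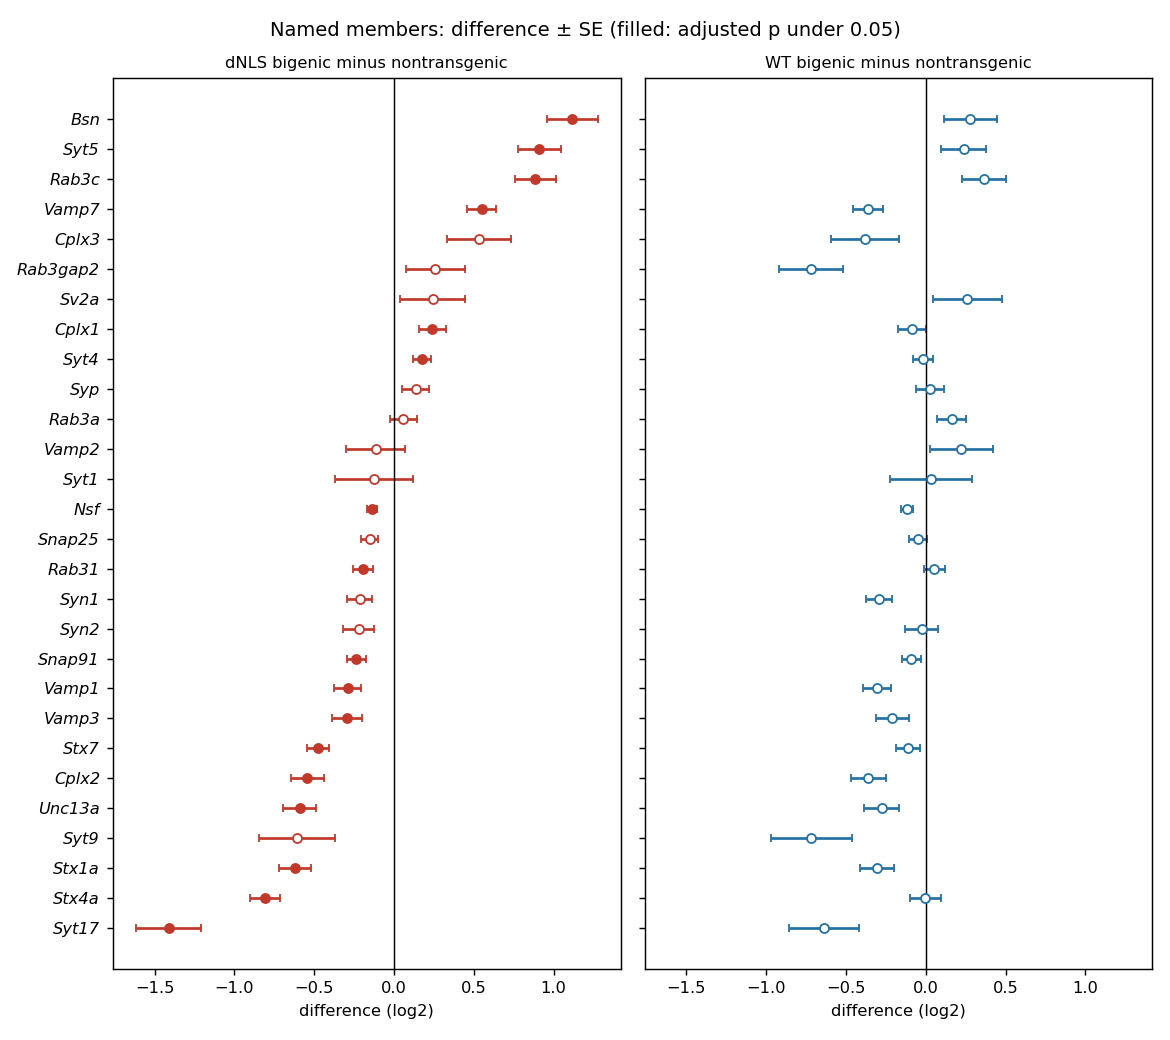
Differences for 28 named genes, on the log2 scale with standard errors, for dNLS bigenic minus nontransgenic (left) and WT bigenic minus nontransgenic (right), with filled points for an adjusted p under 0.05. On the left 17 points are filled, from Bsn at 1.12 to Syt17 at -1.41, and on the right none is. Both panels use the same nontransgenic arrays.

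At the active zone, 1 of 3 genes was higher and 1 lower. Bassoon, the giant scaffold on which active zones are built, had log2 levels of 10.62, 10.49, 10.74, 10.55 and 10.52 on the dNLS bigenic arrays, against 9.85, 9.57, 9.62 and 9.88 on dNLS monogenic arrays and 9.96, 9.88, 9.79 and 9.88 on WT bigenic arrays. Nontransgenic arrays ran from 9.08 through a median of 9.39 to 10.24. Every dNLS bigenic array thus lay above all the others. Bsn was 2.17-fold higher in dNLS bigenic than in nontransgenic cortex, by 1.12 ± 0.16 on the log2 scale (SE; limma adjusted p = 5.81e-05), and by 0.98 without nontransgenic arrays 4 and 6, which had the low levels of 9.08 and 9.13. On the mean of both its probe sets, the second of which stood at or near the lowest value, the difference was 0.56 (adjusted p = 1.03e-04).

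Unc13a, the Munc13 isoform that primes vesicles in most cortical synapses, had 10.46, 10.49, 10.70, 10.43 and 10.55 on dNLS bigenic arrays, against 10.91, 10.98, 10.92 and 11.15 on dNLS monogenic arrays and 10.91, 10.85, 10.71 and 10.89 on WT bigenic arrays. Nontransgenic arrays ran from 10.84 through a median of 11.04 to 11.58. The 5 dNLS bigenic arrays lay below every other array, the nearest being a WT bigenic one. Unc13a fell by 0.59 ± 0.10 against nontransgenic cortex (SE; limma adjusted p = 4.53e-04), a 1.51-fold difference, and the difference was -0.49 without nontransgenic arrays 4 and 6. Rims2, which binds Rab3 and Munc13, did not pass the test, with a difference of -0.30 ± 0.12 (SE; limma adjusted p = 0.108).

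**Figure D2:**
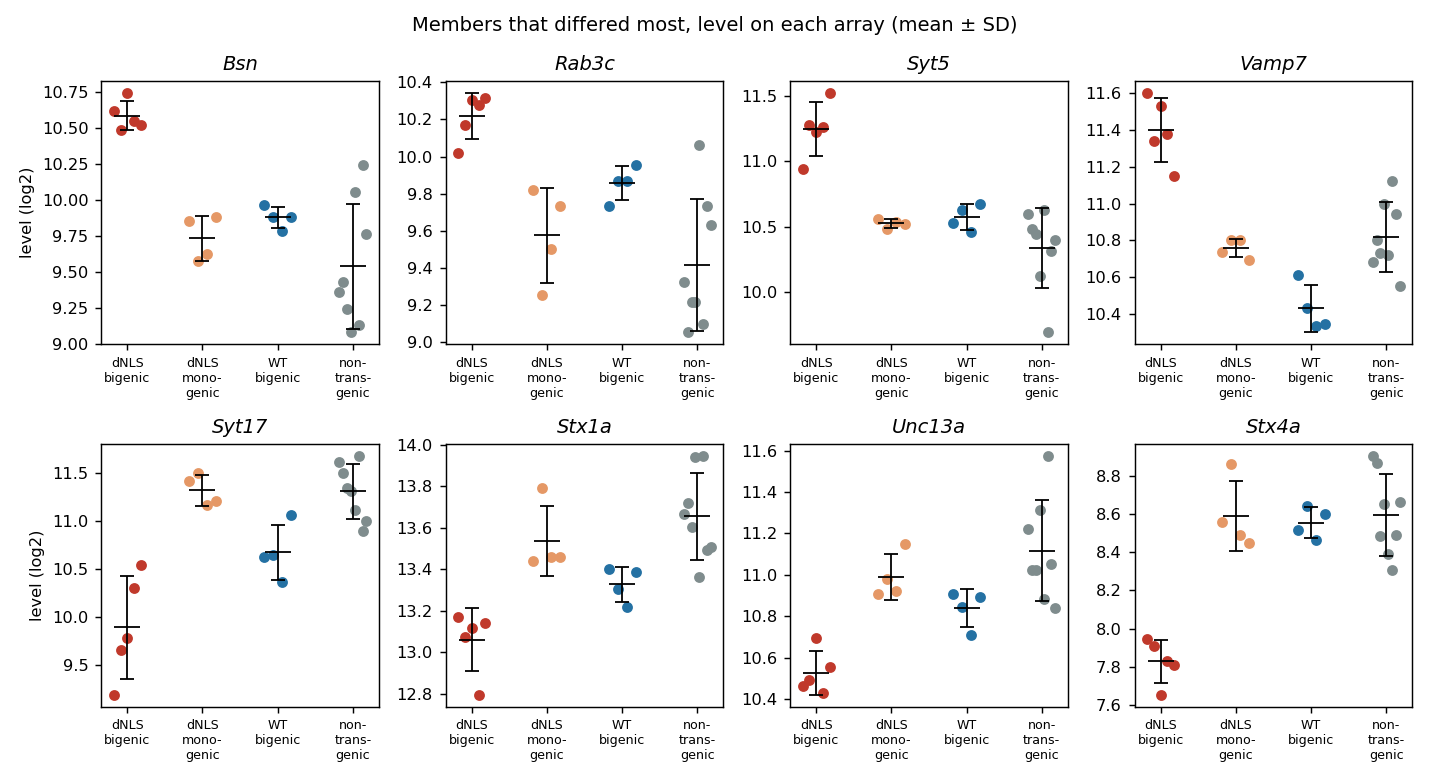
Log2 level of 8 genes on each of the 21 arrays, by group (dNLS bigenic n = 5, dNLS monogenic n = 4, WT bigenic n = 4, nontransgenic n = 8), with the mean and SD as bars and each panel on its own axis. The dNLS bigenic points stand above all the others for Bsn, Syt5 and Vamp7, and below all the others for Stx1a, Unc13a and Stx4a.

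Of the 14 synaptotagmins, the vesicle proteins that couple calcium to fusion, 2 were higher (1 with centred arrays), 1 was lower and 3 stood at the lowest value on all arrays. Syt5, a calcium-binding synaptotagmin, had levels of 10.94, 11.28, 11.23, 11.26 and 11.52 on dNLS bigenic arrays, against 10.56, 10.48, 10.54 and 10.52 on dNLS monogenic arrays and 10.52, 10.63, 10.46 and 10.67 on WT bigenic arrays. Nontransgenic arrays ran from 9.69 through a median of 10.42 to 10.62. No dNLS bigenic array overlapped another group. The difference from nontransgenic cortex was 0.91 ± 0.13 (SE; limma adjusted p = 7.92e-05), or 1.88-fold.

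Syt17, an atypical synaptotagmin that lacks the usual transmembrane segment, showed the greatest difference of the 70 genes in this comparison on the brightest probe sets. Its levels were 9.20, 9.66, 9.78, 10.30 and 10.54 on dNLS bigenic arrays, against 10.63, 10.65, 10.37 and 11.07 on WT bigenic arrays and 10.90 to 11.68, with a median of 11.33, on nontransgenic arrays. On dNLS monogenic arrays it had 11.42, 11.50, 11.17 and 11.21. All 5 dNLS bigenic arrays lay below the nontransgenic ones, while 1 WT bigenic array fell within their range. Syt17 fell by 1.41 ± 0.21 against nontransgenic cortex (SE; limma adjusted p = 7.86e-05), a 2.66-fold difference. On the mean of its probe sets, the second of which lay near the lowest value, the difference was -0.71 (adjusted p = 4.57e-04).

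Syt4, which sits on dense-core and other vesicles and does not act as a fast calcium sensor, averaged 12.56 ± 0.11 in dNLS bigenic and 12.37 ± 0.11 in nontransgenic cortex (SD, n = 5 and 8). Its difference of 0.18 passed the test (limma adjusted p = 0.0408), but only under 17 of 33 alternative settings. Among those that ended the call were centring of the arrays (0.09, adjusted p = 0.225) and the removal of nontransgenic arrays 4 and 6 (0.13, adjusted p = 0.0979). The mean of all its probe sets ended it as well, at a difference of only 0.03.

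Syt1, the main fast calcium sensor of the forebrain, had levels of 11.45, 11.48, 11.47, 11.19 and 11.33 on dNLS bigenic arrays, against 10.61 to 12.04 with a median of 11.72 on nontransgenic arrays. Its difference of -0.13 ± 0.24 did not pass (SE; limma adjusted p = 0.923). The lowest levels of any array were those of nontransgenic arrays 4 and 6, at 10.61 and 10.71, and without both arrays the difference was -0.42 ± 0.14 (SE; limma adjusted p = 0.0429). Syt2, another fast calcium sensor, did not pass either, at -0.94 ± 0.38 (SE; limma adjusted p = 0.0911). It passed without nontransgenic array 8 (-1.09, adjusted p = 0.0214), with line as a term (-1.14, adjusted p = 0.0267) and with controls of the same line (adjusted p = 0.0213).

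**Figure D3:**
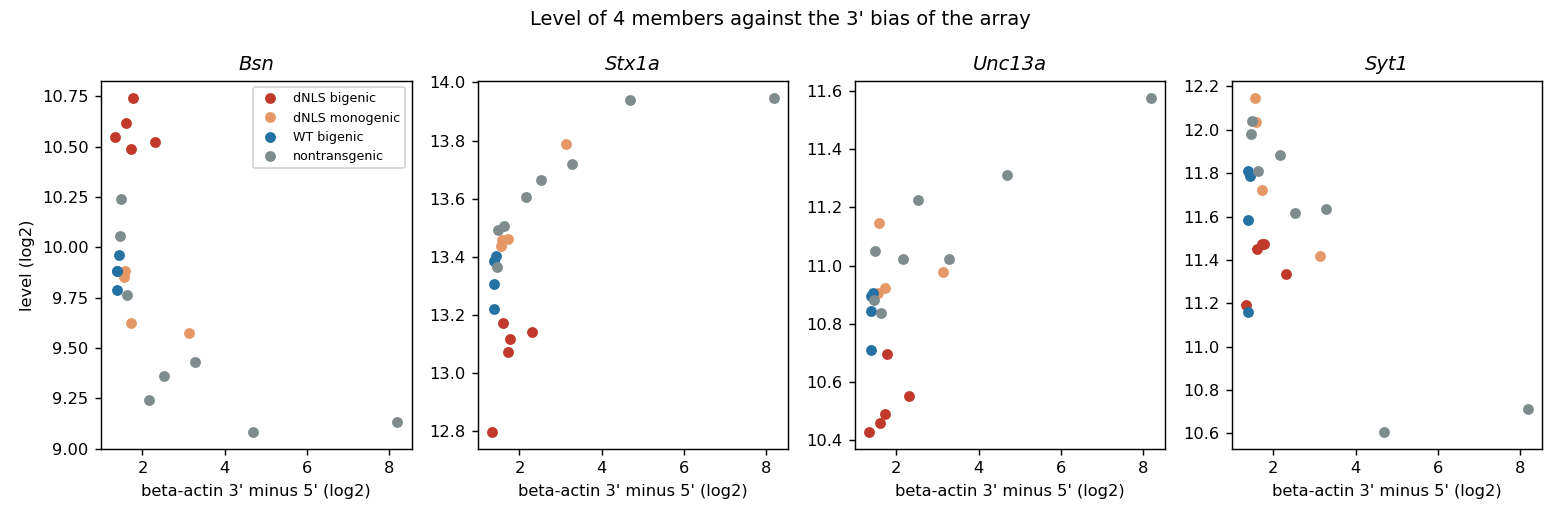
Log2 level of Bsn, Stx1a, Unc13a and Syt1 on each of the 21 arrays (vertical) against the 3′ minus 5′ difference of beta-actin on that array (horizontal, log2). The nontransgenic arrays at 4.70 and 8.20 hold low levels of Bsn and Syt1 and high levels of Stx1a and Unc13a, and the dNLS bigenic arrays, at 1.34 to 2.30, stand apart from arrays of like bias for Bsn, Stx1a and Unc13a.

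None of the 5 synapsins and vesicle membrane proteins passed the test, while with centred arrays 2 did, Syn1 and Syn2, both lower. Synaptophysin (Syp), the most used marker of synaptic vesicles, averaged 13.37 ± 0.06 in dNLS bigenic and 13.22 ± 0.21 in nontransgenic cortex (SD, n = 5 and 8; limma adjusted p = 0.302). Syn1, which tethers vesicles of the reserve pool, averaged 12.85 ± 0.15 in dNLS bigenic and 13.03 ± 0.15 in nontransgenic cortex (SD, n = 5 and 8), and missed the threshold at -0.22 ± 0.08 (SE; limma adjusted p = 0.0544). It passed when dNLS bigenic array 5 was left out (-0.31, adjusted p = 0.00933). Syn2 stood at -0.22 ± 0.10 (SE; limma adjusted p = 0.131), and at -0.29 without nontransgenic arrays 4 and 6 (adjusted p = 0.0261). Over 33 alternative settings the difference of Syn2 ran from -0.33 to 0.23, and it passed under 5. The vesicle glycoprotein gene Sv2a stood at 0.24 ± 0.20 (SE; limma adjusted p = 0.514). Syn3 was at the lowest value throughout.

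Of the 4 SNAREs that form the presynaptic fusion complex, 2 were lower and none was higher, and with centred arrays 3 were lower, Snap25 among them. Stx1a, the plasma-membrane syntaxin of the synapse, had 13.17, 13.07, 13.12, 12.80 and 13.14 on dNLS bigenic arrays, against 13.44, 13.79, 13.46 and 13.46 on dNLS monogenic arrays and 13.40, 13.31, 13.22 and 13.38 on WT bigenic arrays. Nontransgenic arrays ran from 13.36 through a median of 13.64 to 13.95. Here too the dNLS bigenic arrays lay below all the others. Stx1a fell by 0.62 ± 0.10 against nontransgenic cortex (SE; limma adjusted p = 1.91e-04), a 1.54-fold difference, and the difference was -0.53 without nontransgenic arrays 4 and 6, which held the 2 highest levels.

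Vamp1, a vesicle synaptobrevin, had levels of 11.68, 11.36, 11.33, 11.15 and 11.37 on dNLS bigenic arrays, against 11.52 to 11.87 with a median of 11.58 on nontransgenic arrays. Of the 5 dNLS bigenic arrays 4 lay below the nontransgenic mean, and WT bigenic cortex, at 11.39, 11.47, 11.08 and 11.31, held levels as low. Its difference from nontransgenic cortex was -0.29 ± 0.08 (SE; limma adjusted p = 0.0172), and -0.23 without dNLS bigenic array 4 (adjusted p = 0.0521). Vamp2, the main synaptobrevin of cortex, stood at -0.12 ± 0.19 (SE; limma adjusted p = 0.854), at -0.29 without nontransgenic arrays 4 and 6 (adjusted p = 0.136) and at 0.06 without dNLS bigenic array 5. With 3′ bias as a term Vamp2 passed (-0.38, adjusted p = 0.00269), and on the mean of its probe sets its sign was positive (0.20, adjusted p = 0.78). Snap25, the plasma-membrane partner of both, averaged 13.91 ± 0.14 in dNLS bigenic and 14.04 ± 0.08 in nontransgenic cortex (SD, n = 5 and 8), and missed the threshold at -0.15 ± 0.05 (SE; limma adjusted p = 0.0539). Snap25 passed when nontransgenic array 1 was left out (-0.18, adjusted p = 0.0164), and likewise without dNLS bigenic array 1 (adjusted p = 0.0468) or dNLS monogenic array 4 (adjusted p = 0.0292).

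Among the 9 SNARE regulators, the complexin isoforms differed in direction. Cplx2, the complexin of excitatory neurons in particular, had 12.23, 12.19, 12.41, 12.37 and 12.04 on dNLS bigenic arrays, against 12.47 to 13.06 with a median of 12.72 on nontransgenic arrays. WT bigenic levels, at 12.54, 12.48, 12.14 and 12.40, overlapped the dNLS bigenic ones, while the dNLS monogenic levels of 12.41, 12.63, 12.72 and 12.59 lay just above them. Cplx2 fell by 0.54 ± 0.10 against nontransgenic cortex (SE; limma adjusted p = 7.87e-04).

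Cplx1, its close paralogue, had 13.96, 13.81, 13.86, 13.67 and 13.94 on dNLS bigenic arrays, against 13.11 to 13.76 with a median of 13.64 on nontransgenic arrays. Its difference of 0.24 ± 0.08 passed (SE; limma adjusted p = 0.0478), but only under 12 of 33 alternative settings, and it stood at 0.16 (adjusted p = 0.0946) when arrays were centred. Leaving out dNLS bigenic array 5 gave the highest adjusted p, 0.224, with a difference of 0.18. Nsf, the ATPase that disassembles SNARE complexes, was lower by a small amount, averaging 13.28 ± 0.03 in dNLS bigenic and 13.39 ± 0.08 in nontransgenic cortex (SD, n = 5 and 8; limma adjusted p = 0.0062). Nsf did not pass after quantile normalization (-0.08, adjusted p = 0.0696) or on the mean of all its probe sets (-0.07, adjusted p = 0.301). Cplx3 stood at 0.53 ± 0.20 (SE; limma adjusted p = 0.0706), with dNLS bigenic levels from 7.50 to 8.92, and passed without dNLS bigenic array 4 (0.72, adjusted p = 0.00589).

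Rab3 and its partners gave 1 higher gene of 7. Rab3c, a vesicle isoform of Rab3, had 10.02, 10.17, 10.30, 10.28 and 10.31 on dNLS bigenic arrays, against 9.06 to 10.06 with a median of 9.27 on nontransgenic arrays. WT bigenic arrays, at 9.73, 9.87, 9.87 and 9.96, and dNLS monogenic arrays, at 9.82, 9.25, 9.50 and 9.73, all lay below the dNLS bigenic ones, and a single nontransgenic array overlapped them. The difference from nontransgenic cortex was 0.89 ± 0.13 (SE; limma adjusted p = 8.32e-05), or 1.85-fold. Rab3a, the main Rab3 of brain, stood at 0.06 ± 0.09 (SE; limma adjusted p = 0.816).

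Rab3gap2, the non-catalytic subunit of the enzyme that switches Rab3 off, stood at 0.26 ± 0.19 (SE; limma adjusted p = 0.413). Its nontransgenic levels ran from 9.05 to 9.46 apart from 10.32 on array 6. Without array 6 the difference was 0.37 (adjusted p = 0.0111).

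The SNAREs of other membranes, 19 genes, held 1 higher and 3 lower genes. Stx4a, a plasma-membrane syntaxin outside the active zone, had 7.95, 7.91, 7.65, 7.83 and 7.81 on dNLS bigenic arrays, against 8.56, 8.86, 8.49 and 8.45 on dNLS monogenic arrays and 8.52, 8.64, 8.46 and 8.60 on WT bigenic arrays. Nontransgenic arrays ran from 8.30 through a median of 8.57 to 8.91, so the dNLS bigenic arrays stood below all the rest by a clear gap. Stx4a fell by 0.81 ± 0.09 against nontransgenic cortex (SE; limma adjusted p = 7.72e-06), a 1.75-fold difference.

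Vamp7, a tetanus-insensitive synaptobrevin of late endosomes that also serves neurite growth, had 11.60, 11.34, 11.53, 11.38 and 11.15 on dNLS bigenic arrays, against 10.74, 10.80, 10.80 and 10.70 on dNLS monogenic arrays and 10.61, 10.43, 10.33 and 10.35 on WT bigenic arrays. Nontransgenic arrays ran from 10.56 through a median of 10.76 to 11.12. The dNLS bigenic arrays lay above all the others, and the WT bigenic arrays lay toward the low end. The difference between dNLS bigenic and nontransgenic cortex was 0.55 ± 0.09 (SE; limma adjusted p = 2.29e-04).

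Stx7, the late-endosomal syntaxin that pairs with Vamp7, went the other way, with 10.38, 10.13, 10.45, 10.08 and 10.22 on dNLS bigenic arrays, against 10.59 to 10.97 with a median of 10.70 on nontransgenic arrays. It fell by 0.48 ± 0.07 (SE; limma adjusted p = 8.46e-05). Vamp3, a synaptobrevin of recycling endosomes, averaged 11.05 ± 0.24 in dNLS bigenic and 11.37 ± 0.18 in nontransgenic cortex (SD, n = 5 and 8; limma adjusted p = 0.0357). The call on Vamp3 was lost when any of dNLS bigenic arrays 1 and 2 or nontransgenic arrays 1 and 2 was left out, at differences from -0.22 to -0.30 (adjusted p = 0.0537 to 0.105). It was also lost on the mean of all its probe sets (-0.11, adjusted p = 0.364) and with 3′ bias as a term (-0.22, adjusted p = 0.0953).

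Of the 8 other Rab GTPases 1 was lower, Rab31, which acts between Golgi and endosomes, at -0.19 ± 0.06 (SE; limma adjusted p = 0.0336). On the mean of all its probe sets the sign reversed (0.75, adjusted p = 0.456), and line as a term (-0.18, adjusted p = 0.059) or controls of the same line (-0.18, adjusted p = 0.0717) ended the call. The call on Rab31 was also lost without any 1 of dNLS bigenic arrays 1 and 2 and nontransgenic arrays 1 to 4, at differences from -0.15 to -0.19 (adjusted p = 0.0537 to 0.0994). Snap91, the clathrin assembly protein AP180, averaged 12.79 ± 0.17 in dNLS bigenic and 13.01 ± 0.05 in nontransgenic cortex (SD, n = 5 and 8), at -0.24 ± 0.06 (SE; limma adjusted p = 0.00574). All 5 dNLS bigenic arrays lay below the nontransgenic ones for Snap91, from 12.90 on array 1 to 12.49 on array 5.

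Several genes are read by more than 1 probe set: 35 of the 70 genes, and 130 probe sets in all. In a fit on single probe sets 23 of 130 (17.7%) passed, 10 higher and 13 lower, against 19.7% of all 20380 probe sets. No gene had probe sets past the threshold in opposite directions. The second probe set of Stx1a fell by 1.11 ± 0.11 (SE; limma adjusted p = 1.58e-06), a larger difference than the first. Vamp4 and Snap47 did not pass on their brightest probe set and passed on a dimmer one. The second probe set of Vamp4, a SNARE of the trans-Golgi network, averaged 10.79 in dNLS bigenic and 11.63 in nontransgenic cortex, a difference of -0.86 ± 0.12 (SE; limma adjusted p = 7.87e-05), while the brightest stood at -0.16 ± 0.15, and at -0.25 without nontransgenic array 6 (adjusted p = 0.0438). The second probe set of Snap47, a widely expressed SNAP-25 relative, stood at 0.30 ± 0.09 (SE; limma adjusted p = 0.0205), and its brightest at -0.06 ± 0.04. Which transcripts these probe sets read was not analysed here.

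Wild-type TDP-43 was set against the same nontransgenic arrays. In WT bigenic cortex 0 of the 70 genes passed the test in limma, against 2.23% of all genes (0.686% higher, 1.54% lower). At an unadjusted p of 0.05, 16 of the 70 did (22.9% of them), against 18.5% of all genes. The nearest to the threshold was Vamp7, whose difference was -0.36 ± 0.09 (SE; limma adjusted p = 0.0543), and its sign was opposite to that in dNLS bigenic cortex. Rab3gap2 stood at -0.72 ± 0.20 (SE; limma adjusted p = 0.0692), Syn1 at -0.29 ± 0.08 (SE; adjusted p = 0.0727), Vamp1 at -0.30 ± 0.09 (SE; adjusted p = 0.0803) and Cplx2 at -0.36 ± 0.11 (SE; adjusted p = 0.0864). The 4 WT bigenic arrays lay below all nontransgenic arrays for Rab3gap2, Syn1 and Vamp1. How many of all genes lay apart in this way was not counted, so little can be read from it. The genes that led in dNLS bigenic cortex stood at 0.28 ± 0.17 (Bsn), 0.24 ± 0.14 (Syt5), 0.37 ± 0.14 (Rab3c), -0.64 ± 0.22 (Syt17) and 0.00 ± 0.10 (Stx4a). The count of 0 depended on single arrays. Without nontransgenic array 5, 5 genes passed, Rab3c higher and Cplx2, Rab3gap2, Syn1 and Vamp7 lower. Of all genes 181 were then higher and 398 lower, in place of 85 and 191. Nsf and Vamp7 passed without nontransgenic array 8, and 1 gene passed without nontransgenic array 1, 4 or 6, WT bigenic array 4, or dNLS bigenic array 4 or 5. Centring moved the median of all genes by -0.11 in this comparison and gave 2 genes.

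Set directly against WT bigenic cortex, dNLS bigenic cortex had 7 higher and 3 lower genes, 10 of 70 (14.3%), against 10.8% of all genes (6.24% higher, 4.53% lower). The higher genes were Bsn, Rab3c, Syt5, Vamp7, Cplx1, Cplx3 and Rab3gap2, and the lower ones Stx4a, Stx7 and Rab31. Vamp7 differed by 0.91 ± 0.11 (SE; limma adjusted p = 3.86e-05), or 1.88-fold, and Stx4a by -0.81 ± 0.11 (SE; limma adjusted p = 1.88e-04). Bsn differed by 0.84 ± 0.19 (SE; limma adjusted p = 0.00871) and Syt5 by 0.67 ± 0.16 (SE; limma adjusted p = 0.0117).

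Rab3gap2 had 9.90, 9.65, 9.67, 9.79 and 9.44 on dNLS bigenic arrays, against 8.88, 8.68, 8.58 and 8.37 on WT bigenic arrays. The groups did not overlap, and the difference was 0.98 ± 0.23 (SE; limma adjusted p = 0.00979). Cplx3, a complexin best known from retinal ribbon synapses, had 8.39, 8.42, 8.30, 7.50 and 8.92 on dNLS bigenic arrays, against 7.44, 7.42, 7.48 and 7.31 on WT bigenic arrays. Its difference was 0.91 ± 0.25 (SE; limma adjusted p = 0.0229), and 0.65 without dNLS bigenic array 5 (adjusted p = 0.133). The call on Cplx3 was also lost without WT bigenic array 1 (0.95, adjusted p = 0.0744) or 4 (0.88, adjusted p = 0.0525). The calls on Cplx1, Rab3c and Rab31 were each lost in most of the fits that left out 1 array, with adjusted p up to 0.213, 0.0964 and 0.127, and that on Syt5 was lost without dNLS bigenic array 5 (0.55, adjusted p = 0.0678) or WT bigenic array 1 (0.65, adjusted p = 0.0623). The 10 calls fell to 5 without WT bigenic array 1 and to 6 without WT bigenic array 4, and Bsn, Rab3gap2, Stx4a, Stx7 and Vamp7 were among those left in both cases. The calls over all genes fell too, from 773 higher and 561 lower to 464 and 353, and to 623 and 464. With line as a term in the fit 4 genes passed, Bsn, Stx4a, Stx7 and Vamp7. The other calls ended, among them Rab3gap2 (0.81, adjusted p = 0.239), Cplx3 (0.34, adjusted p = 0.738) and Syt5 (0.70, adjusted p = 0.146). With centred arrays Stx7 did not (-0.33, adjusted p = 0.085).

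Several genes that were lower against nontransgenic cortex did not pass here. Stx1a stood at -0.32 ± 0.12 (SE; limma adjusted p = 0.121) and Unc13a at -0.31 ± 0.13 (SE; limma adjusted p = 0.149), although their dNLS bigenic arrays lay below all 4 WT bigenic arrays. Syt17 stood at -0.78 ± 0.25 (SE; limma adjusted p = 0.0602). Without nontransgenic array 6, which enters this fit only through the shared spread and the sex term, Stx1a, Unc13a and Syt17 passed, and 14 genes did in all. Of all 12393 genes 1090 were then higher and 835 lower, in place of 773 and 561.

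Against dNLS monogenic cortex, which comes from the same line and lacks tTA, dNLS bigenic cortex had 4 higher and 7 lower genes, 11 of 70 (15.7%), against 14.3% of all genes (7.76% higher, 6.54% lower). Without genes at the lowest value the shares were 17.7% of 62 and 18.6% of 9539. Bsn (0.86 ± 0.18), Rab3c (0.66 ± 0.15), Syt5 (0.72 ± 0.15) and Vamp7 (0.63 ± 0.10) were higher. Syt17 (-1.43 ± 0.23), Syt9 (-0.87 ± 0.27), Stx4a (-0.77 ± 0.11), Stx1a (-0.48 ± 0.11), Unc13a (-0.46 ± 0.12), Stx7 (-0.45 ± 0.08) and Snap91 (-0.22 ± 0.07) were lower, each with its SE. Limma adjusted p ranged from 9.26e-05 for Stx4a to 0.0392 for Syt9. Syt9, a fast calcium sensor of limbic and striatal neurons, had 5.17, 5.96, 5.71, 6.33 and 6.33 on dNLS bigenic arrays, against 7.21, 6.69, 6.37 and 6.81 on dNLS monogenic arrays. The groups lay close without overlapping, and the call on Syt9 was lost when any of dNLS bigenic arrays 1, 2 and 3, dNLS monogenic arrays 1, 2 and 4 or WT bigenic array 2 was left out (-0.69 to -0.90, adjusted p = 0.0502 to 0.145). That on Snap91 was lost without dNLS monogenic array 2, 3 or 4 (-0.18 to -0.22, adjusted p = 0.063 to 0.123), and that on Unc13a without dNLS monogenic array 4 (-0.40, adjusted p = 0.0575). Without nontransgenic array 6 the count was 17, while over all genes 1368 were higher and 1149 lower, in place of 962 and 811.

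The uninduced transgene was checked last. In dNLS monogenic against nontransgenic cortex 0 of the 70 genes passed in limma, and 0 of all genes (0.0%). At an unadjusted p of 0.05, 1 of the 70 did, Rab3b at 0.30 ± 0.13 (SE), against 1.58% of all genes.

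Across all groups at once, the 5 dNLS bigenic arrays lay beyond the other 16 arrays for 8 of the 70 genes, against 7.96% of all genes. They lay above for Bsn, Syt5 and Vamp7 (4.91% of all genes did), and below for Stx1a, Stx4a, Stx7, Unc13a and Stxbp6 (3.05% of all genes). Stxbp6, the amisyn that can take synaptobrevin's place in a SNARE complex, was at 2.04 to 2.07 on dNLS bigenic arrays, at or near the lowest value. Its levels elsewhere were low too, with a maximum of 3.35 on nontransgenic array 6, so it carries little weight. With centred arrays 4 genes lay apart, Bsn, Syt5 and Stx4a of those 8 and Rab3c in addition. The share of all genes that lay apart with centred arrays is not given here.

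Other genes of the release and recycling cycle came from lists that hold none of the 70. In 4 of 5 lists more genes were lower than higher, in the exocyst list through 1 gene alone. Of all genes 22.3% passed, 10.8% higher and 11.5% lower. With centred arrays the fifth list did too, the vesicle membrane proteins and transporters, at 1 higher and 2 lower. Centring also moved all genes, to 973 higher and 1674 lower, in place of 1336 and 1423. Without both nontransgenic arrays of largest 3′ bias, 1688 of all genes were higher and 1612 lower. The active zone and priming list then had 3 higher and 7 lower, in place of 1 and 8. The endocytosis list kept 0 and 8, with a median of -0.08 in place of -0.13. The vacuolar ATPase list kept 2 and 7, the exocyst list kept 0 and 1, and the vesicle membrane list had 2 and 3. Of 23 genes of endocytosis and the clathrin coat, 0 were higher and 8 lower in dNLS bigenic than in nontransgenic cortex, with a median difference of -0.13. The largest of these were Itsn2, an intersectin scaffold (-0.67 ± 0.04, SE; limma adjusted p = 8.79e-09), Amph, the amphiphysin that recruits dynamin (-0.51 ± 0.08), Ap2m1, the cargo-binding subunit of the AP-2 adaptor (-0.36 ± 0.04), and Sh3gl3, an endophilin (-0.30 ± 0.07). Snap91, of the 70, was lower with them. Of 20 further genes of the active zone and priming, 1 was higher and 8 lower, with a median of -0.17. Cadps2, a priming factor of dense-core vesicles, was at -0.67 ± 0.04 (SE; limma adjusted p = 1.64e-08) and Lin7b, an adaptor of the Cask complex, at -0.51 ± 0.08. Napa, the alpha-SNAP that loads NSF onto SNARE complexes, was higher, at 0.60 ± 0.06 (SE; limma adjusted p = 2.53e-06), while Nsf itself was lower. Doc2b, a high-affinity calcium sensor, was at -2.45 ± 0.52 (SE; limma adjusted p = 0.00227), with a mean of 2.70 in dNLS bigenic cortex close to the lowest value, against 5.28 in nontransgenic cortex.

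Of 14 vesicle membrane proteins and transmitter transporters, 2 were higher and 2 lower, with a median of 0.00. The vesicular glutamate transporter Slc17a6 averaged 9.21 ± 0.20 in dNLS bigenic and 10.76 ± 0.23 in nontransgenic cortex (SD, n = 5 and 8; limma adjusted p = 3.41e-07), and it was the only gene of these lists past the test in WT bigenic cortex, at -0.95 ± 0.14 (SE; limma adjusted p = 0.0106). Synpr, a synaptophysin relative, was at -0.77 ± 0.09, and Scamp3 and Syngr3 were higher, at 0.39 ± 0.09 and 0.30 ± 0.10 (SE). Of 21 subunits and partners of the vacuolar ATPase, the proton pump that powers vesicle filling, 2 were higher and 7 lower, with a median of -0.02. The largest were Atp6v1d (-0.52 ± 0.08), Atp6v1c1 (-0.51 ± 0.05), Atp6v1f (0.37 ± 0.08) and Atp6ap2 (-0.37 ± 0.07), each with its SE. Of 5 exocyst genes 1 was lower, Exoc6 (-0.45 ± 0.11, SE), while the median of the 5 was positive, at 0.16.

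**Figure D4:**
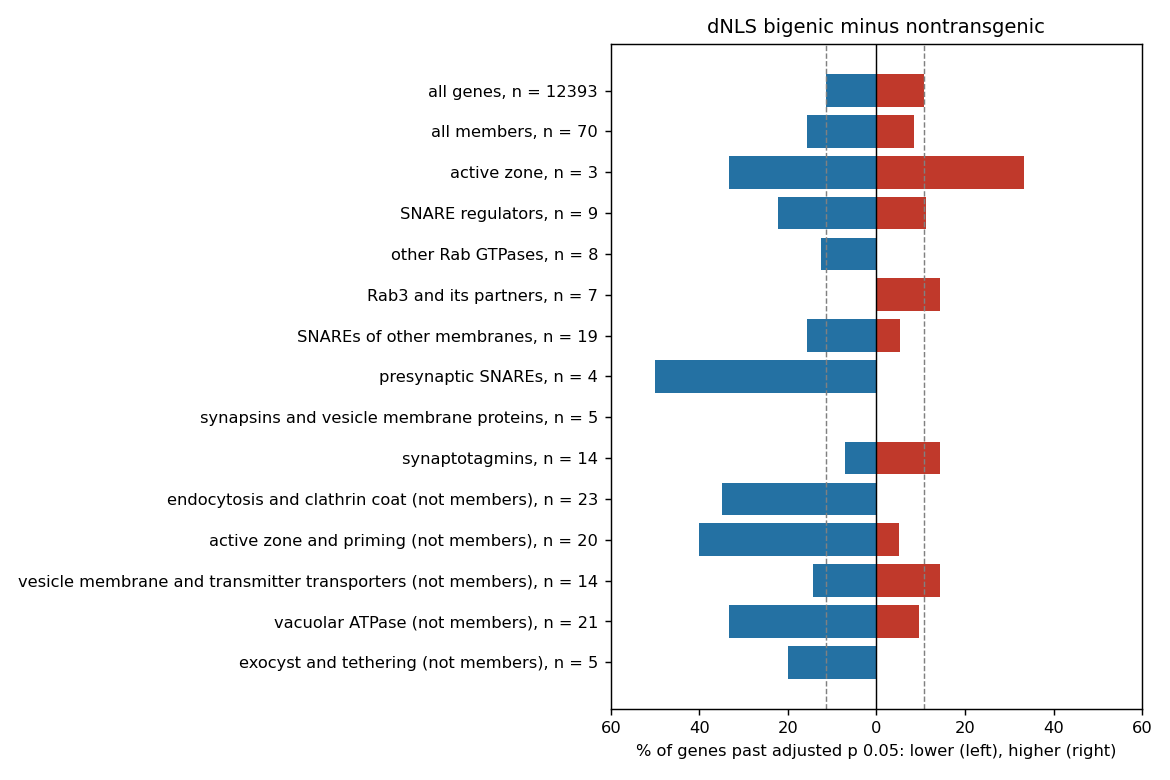
Share of genes that passed an adjusted p of 0.05 in dNLS bigenic minus nontransgenic, lower to the left and higher to the right, for all genes, for the 70 genes and their groups by role, and for 5 further lists. Dashed lines mark the shares of all genes, 11.5% lower and 10.8% higher, and several groups hold fewer than 10 genes, so that 1 gene moves their bar by much.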

How the data were processed

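The deposited values were log2 levels of 22690 probe sets on 21 arrays. No source gives the logarithm's base, so it was read from the values, which run from 2.04 to 15.1. Per the labels' protocols, total RNA was extracted with TRIzol, had a RIN of at least 7 and was labelled with biotin after 1 cycle of linear amplification primed with poly(T). Partek is named in the submitters' processing notes, with no version. The normalization is not given in the sources used here. Between 30.7% and 32.4% of an array's probe sets held the lowest value, to within 0.01, so changes toward it are compressed.

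Probe sets with a single gene symbol (20380, with 691 naming several genes and 1555 none) gave 12393 genes, 1 probe set of highest mean each. The gene IDs of 20351 of these probe sets were in the RefSeq table. Linear models were fitted with limma 3.58.1 in R 4.3.3 (lmFit and eBayes with an intensity trend) over all 21 arrays, with the 4 groups and labelled sex as terms and Benjamini-Hochberg adjustment over all genes at 0.05. The script was checked on simulated data. Named were the genes past the threshold in any of 5 comparisons, a fixed list of core genes, the 4 largest called changes of each pathway list, and genes with opposed probe sets. Other genes and probe sets were named after their values were seen. The members, lists, and tests were chosen with earlier results of these data known. Replicate numbers follow accession order. Mice are separate samples of a group, and the number of arrays limits the precision.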

Additional observations from a re-analysis of the deposited data

Results flagged for a closer look

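Within a group of 4 to 10 arrays, a level was singled out where its gap to the nearest other array filled an unusually large part of the group's range (Dixon's 95% limit). Of 112 groups checked over the 28 named genes 10 met this, and chance gives about 1 in 20 groups. Of these, 3 were on nontransgenic array 6, the array of largest 3′ bias (8.20): Cplx1 at 13.108, against 13.551 to 13.755 on the others, Rab3a at 12.221, against 12.733 to 12.956, and Rab3gap2 at 10.32, against 9.05 to 9.46. Stx7 was at 10.967 on nontransgenic array 4, against 10.59 to 10.76. On dNLS bigenic array 5 Snap91 was at 12.486, against 12.844 to 12.902, and Vamp2 at 12.706, against 13.28 to 13.441. On dNLS bigenic array 4 Stx1a was at 12.795, against 13.071 to 13.171. On dNLS monogenic array 2 Stx1a was at 13.79, against 13.438 to 13.46, and Syn1 at 13.23, against 12.879 to 12.923. Rab31 was at 11.839 on WT bigenic array 3, against 11.563 to 11.607. The part of array quality in these values was not tested.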

How the results depend on the processing

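For dNLS bigenic minus nontransgenic, 11 of the 17 calls (Bsn, Cplx2, Rab3c, Snap91, Stx1a, Stx4a, Stx7, Syt17, Syt5, Unc13a and Vamp7) passed under all 33 alternatives and 6 (Cplx1, Nsf, Rab31, Syt4, Vamp1 and Vamp3) did not. The count was 12 on the mean of all probe sets, 14 to 21 when 1 array was left out, 23 without nontransgenic arrays 4 and 6, and 30 with array weights. Counts over all genes moved as well, from 1336 higher and 1423 lower in the main fit. They were 1442 and 1207 on the mean of all probe sets, and 1688 and 1612 without nontransgenic arrays 4 and 6. With array weights they were 2069 and 2178. Rab31 reversed to 0.75 on the mean of all its probe sets (adjusted p = 0.456), and the cause was not tested. For WT bigenic minus nontransgenic, where 0 passed, the count was 0 to 5 with 1 array left out, 5 with array weights, 4 without the sex term, 2 each with centred arrays, with genes at the lowest value left out, with sex read from Xist and without nontransgenic arrays 4 and 6, and 1 with controls of the same line. Over all genes 85 were higher and 191 lower in the main fit. With array weights 310 and 559 were, and without the sex term 158 and 347. For dNLS bigenic minus WT bigenic, where 10 passed, the count was 5 to 14 with 1 array left out and 4 with line as a term. It was 17 without nontransgenic arrays 4 and 6, 18 with 3′ bias as a term and 20 with array weights. Over all genes 773 were higher and 561 lower in the main fit, and 206 and 234 with line as a term. Under the last 3 settings 1272 and 1002, 1327 and 1110, and 1656 and 1452 were. For dNLS bigenic minus dNLS monogenic, where 11 passed, the count among the 70 was 9 to 17, then 18, 20 and 33 under these 3 settings. Over all genes the main fit had 962 higher and 811 lower. These 3 settings had 1564 and 1321, 1565 and 1325, and 2292 and 2026. For dNLS monogenic minus nontransgenic the count among the 70 was 0 under every alternative run. With centred arrays 4 genes lay apart from all other arrays, in place of 8, and the probe set count was 32 without nontransgenic arrays 4 and 6, in place of 23. The matching counts over all genes lying apart and over all probe sets are not given here. Gene calls over all genes also rose without nontransgenic arrays 4 and 6, to 1688 higher and 1612 lower. Among single genes and alternatives, 1422 values kept their side of the threshold, 141 fell short of it and 32 newly passed. The remaining 1, Rab31, passed in the main fit and reversed in sign. Sign changes among values that passed in neither fit are held within the 1422. Such changes occurred for Vamp2 (-0.38 to 0.20 over the alternatives), Syn2 (-0.33 to 0.23), Sv2a (-0.07 to 0.35) and Rab3a (-0.07 to 0.09). No paired analysis was possible because the labels give the arrays no replicate numbers, and those used only follow accession order. Probe sets near the lowest value, 8 of the 70 genes entirely, limit what can be read.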
